A study of Rattus norvegicus with 8 samples.

Results

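Collagens, the structural proteins of the extracellular matrix, were examined in dorsal root ganglia (DRG) of adult male Wistar rats, taken at L5 on the side where the L5 spinal nerve had been ligated and transected. Both groups carried the injury and an intrathecal catheter with an osmotic pump. In 1 group, called HDACI here for histone deacetylase inhibitor, the pump held MS-275, an inhibitor of the class I enzymes, given at 30 nmol each day. In the other it delivered the vehicle, dimethyl sulfoxide in saline. The treatment text in the labels names MS-275 for all 8 samples, and the groups follow the sample titles and source names, which separate treated from vehicle. Tissue was taken 14 days after injury, and RNA from 4 biological replicates of either treatment, according to the methods of the study, went onto 1 array each (Affymetrix Rat Gene 1.0 ST). No uninjured ganglion was part of the comparison. Of 15 sensory neuron markers 13 were measured, with mean levels between 10.87 and 11.30 over the arrays (log2), and none of them lay in the lowest 30% of probe sets.

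The genes were chosen by name, as those whose single symbol in the annotation of the array was Col, a number, a and a number, which gave 25 of 14497 genes with 1 symbol. This naming rule used no measured values, although the genes were chosen with earlier results of these data known. Each was represented by the probe set whose mean across the 8 arrays was highest, and Col6a4 was the single member with more than 1 probe set (3). They were grouped into 10 fibrillar collagens, 3 basement membrane collagens and 12 other collagens. Collagen chains whose probe sets carried no symbol of their own, or several, were not analysed here.

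A collagen molecule is a triple helix of 3 chains, each built on a repeat in which glycine returns at a fixed spacing. Fibrillar collagens are secreted as procollagens, trimmed by proteases and packed into the banded fibrils that give tissue its tensile strength. Type IV collagen instead forms the sheet-like network of basement membranes, which in nerve and ganglion surround Schwann cells, satellite glia and capillaries. Fibril-associated collagens decorate the surface of fibrils, and other members form short networks, anchor epithelia or span the cell membrane. In peripheral nerve, fibroblasts and Schwann cells are the known sources of most of these chains, and the connective tissue of nerve is known to thicken after injury.

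Sequences of 3 promoters are given. Those of Col4a3 and Col4a4 are given because these neighbouring genes share promoter bases and are compared as a pair. That of Col1a2 is given as the only type I chain with a window, which held both a CCAAT and a TATA box. RefSeq (build GRCr8) held a window of 250 bases before to 50 bases after the annotated start for 20 of the 25 genes. Windows were lacking for Col1a1, Col2a1, Col3a1, Col12a1 and Col14a1. Col4a3 and Col4a4 lie head to head on chromosome 9 and are transcribed away from each other, with 412 bases between their annotated starts, so that their windows share 88 bases. In the first pair of lines capitals mark these shared bases, each read 5′ to 3′ on the strand of its own gene (chr9:91323740-91324039, plus strand, and chr9:91323528-91323827, minus strand). In the line of Col1a2 (chr4:33518307-33518606, plus strand) capitals mark a CCAAT box, which lies on the opposite strand and so reads ATTGG here, and a TATA box (TATAAA). The TATA box begins at base -170 from the annotated start.
Col4a3: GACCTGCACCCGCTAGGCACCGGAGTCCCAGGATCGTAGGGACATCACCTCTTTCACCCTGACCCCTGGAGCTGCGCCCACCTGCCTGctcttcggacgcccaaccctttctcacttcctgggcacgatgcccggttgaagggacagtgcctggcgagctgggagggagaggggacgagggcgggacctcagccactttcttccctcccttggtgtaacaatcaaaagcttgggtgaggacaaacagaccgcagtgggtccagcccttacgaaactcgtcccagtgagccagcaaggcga
Col4a4: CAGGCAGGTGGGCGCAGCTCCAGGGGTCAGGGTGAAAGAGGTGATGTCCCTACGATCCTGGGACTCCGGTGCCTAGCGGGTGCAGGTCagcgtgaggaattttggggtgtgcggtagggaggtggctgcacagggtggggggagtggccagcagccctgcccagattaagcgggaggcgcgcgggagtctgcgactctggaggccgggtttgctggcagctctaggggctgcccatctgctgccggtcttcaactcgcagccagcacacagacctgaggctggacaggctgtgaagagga
Col1a2: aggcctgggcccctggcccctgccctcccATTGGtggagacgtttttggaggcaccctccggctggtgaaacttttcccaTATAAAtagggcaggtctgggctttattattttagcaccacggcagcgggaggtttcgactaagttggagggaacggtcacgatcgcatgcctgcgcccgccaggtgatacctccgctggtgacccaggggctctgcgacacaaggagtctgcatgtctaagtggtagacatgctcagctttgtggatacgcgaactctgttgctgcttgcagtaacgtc

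Searched on both strands, CCAAT was present in 7 of the 20 collagen windows (35.0%), against 37.5% of all 33469 promoter windows of the same length. TATAAA was present in 4 (20%, against 14.2%) and the GC box GGGCGG in 11 (55.0%, against 33.1%). The motifs can share end letters, and matches of different motifs overlapped in 0 of the 20 windows. These matches describe the windows only.

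For no collagen gene was a difference between the groups larger than the spread between arrays allows to call. By limma, 0 of 25 had an adjusted p under 0.05 (0.0% of all 28826 probe sets did), and 0 of 25 had an unadjusted p under 0.05, where 3.55% of all probe sets did. At an unadjusted p under 0.01 the count was also 0 of 25, against 0.555%. For 0 of 25 did the groups not overlap, against 1.01% of probe sets lying higher and 1.09% lying lower in every HDACI array. Every one of the 25 differences nonetheless had the same sign, with the mean higher in HDACI, and 53.3% of all probe sets had this sign. The median difference was 0.11 over the collagens and 0.0055 over all probe sets (log2). The differences ranged from 0.012 to 0.31. This count was chosen for mention after the values were seen, and the 25 genes are not independent, since many of them moved together from array to array. Bulk RNA from a ganglion cannot tell more RNA per cell from more cells of a type.

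The shared sign of all 25 depended on which arrays were kept. Skeletal muscle genes, of which 26 of 30 listed were measured (21 of the 26 lower in HDACI at the unadjusted threshold, where 1.93% of all probe sets were), were high in vehicle replicates 1, 2 and 4, with a median deviation from the mean of all arrays of 2.45, 1.41 and 0.43 (log2), against -0.99 to -0.74 in HDACI and -0.92 in vehicle replicate 3. With the muscle genes as a covariate 18 of the 25 collagens were higher in HDACI and 7 were lower, and their median difference was 0.059, where 50.2% of all probe sets were higher. With the 2 vehicle arrays highest in muscle genes left out the numbers were 17 and 8, the median was 0.068, and 48.1% of all probe sets were higher. Leaving out 1 HDACI array left 23, 23, 24 and 24 of them higher (replicates 1 to 4), and leaving out 1 vehicle array left 22, 22, 25 and 25. The part of muscle tissue in these differences was not tested beyond these values.

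**Figure D1:**
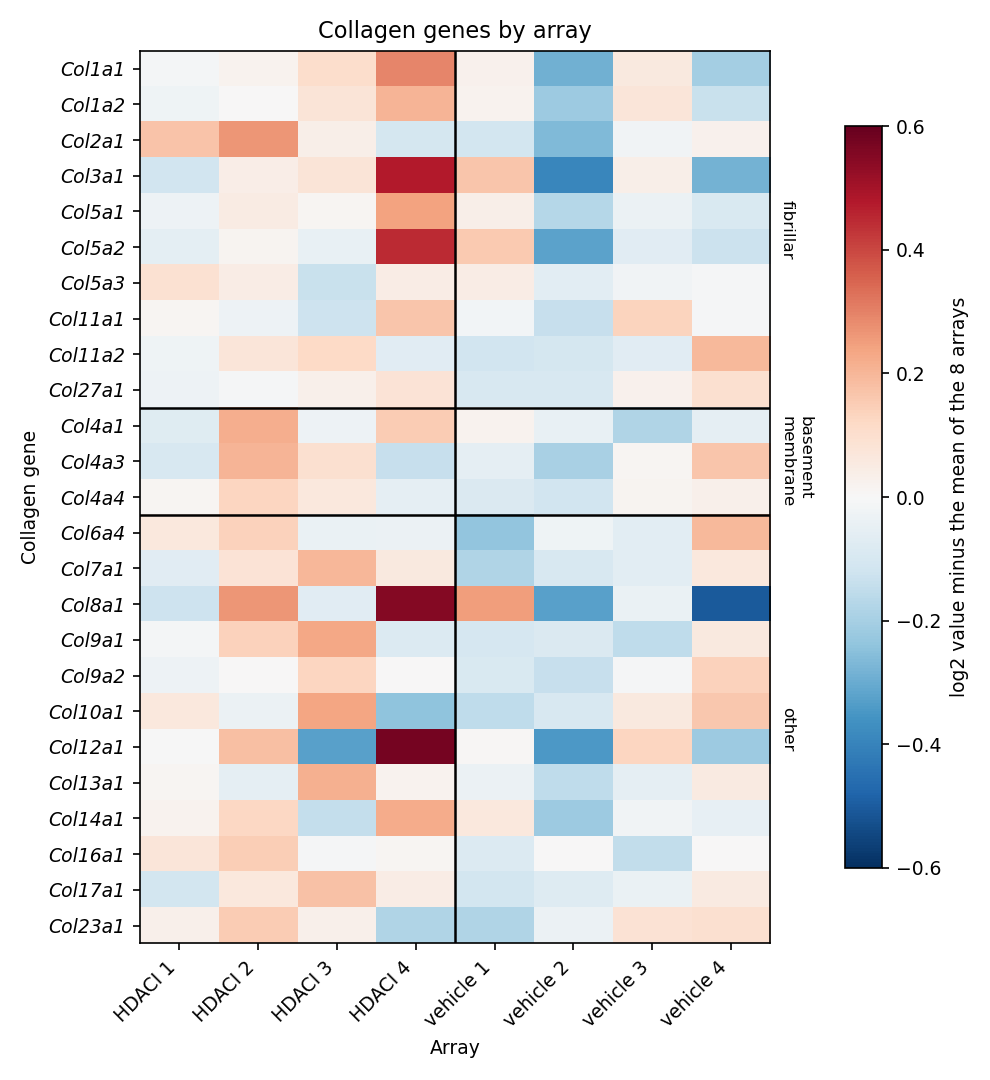
Each row is 1 of the 25 collagen genes and each column 1 array, coloured by the log2 value minus that gene's mean over the 8 arrays, with lines between the 3 classes and between HDACI and vehicle. HDACI replicate 4 holds the highest value of 9 genes and vehicle replicate 2 the lowest of 13.

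The fibrillar collagens of interstitial connective tissue were Col1a1 and Col1a2, the chains of type I collagen, Col3a1 of type III, and Col5a1 and Col5a2 of type V, which governs the diameter of type I fibrils. Col1a1 measured 12.77, 12.81, 12.89 and 13.08 in HDACI replicates 1 to 4 and 12.81, 12.50, 12.84 and 12.58 in vehicle replicates 1 to 4 (log2). The highest value was in HDACI replicate 4 and the lowest in vehicle replicate 2, and the groups overlapped, since vehicle replicates 1 and 3 lay among the HDACI arrays. The difference was 0.20 ± 0.097 (log2, SE, 95% interval -0.015 to 0.42, n = 4 each), with limma's adjusted p = 1.0. Its unadjusted p was the smallest of the 25. The difference was 0.14 without HDACI replicate 4, and it passed the unadjusted threshold without vehicle replicate 1 (0.25) or vehicle replicate 3 (0.26). In those fits 6.10% and 3.57% of all probe sets passed it.

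Col1a2 measured 12.34, 12.37, 12.44 and 12.57 in HDACI replicates 1 to 4 and 12.39, 12.15, 12.44 and 12.24 in vehicle replicates 1 to 4 (log2). It ranked the 8 arrays in the same order as Col1a1 and differed by 0.13 ± 0.078. That difference was 0.077 without vehicle replicate 2. Type III collagen, which accompanies type I in soft tissue, showed a wider spread. For Col3a1 the values were 11.68, 11.83, 11.87 and 12.27 in HDACI replicates 1 to 4 and 11.96, 11.40, 11.83 and 11.51 in vehicle replicates 1 to 4 (log2). Its difference was 0.24 ± 0.15, and 0.12 without HDACI replicate 4. Vehicle replicate 1 lay above HDACI replicates 1 to 3.

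Col5a1 measured 9.72, 9.80, 9.76 and 9.99 in HDACI replicates 1 to 4 and 9.78, 9.58, 9.71 and 9.66 in vehicle replicates 1 to 4 (log2), and differed by 0.13 ± 0.071. The values of Col5a2 were 10.26, 10.34, 10.28 and 10.77 in HDACI replicates 1 to 4 and 10.48, 9.999, 10.25 and 10.19 in vehicle replicates 1 to 4 (log2), with a difference of 0.18 ± 0.13, which was 0.065 without HDACI replicate 4. For both, HDACI replicate 4 was the highest array and vehicle replicate 2 the lowest. Without HDACI replicate 4 the difference of Col5a1 was 0.077. The remaining type V chain Col5a3 differed by 0.024 ± 0.058, and its lowest array was HDACI replicate 3.

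Among the fibrillar collagens known from cartilage, Col2a1 was highest in another array, HDACI replicate 2. This main collagen of cartilage measured 9.55, 9.65, 9.42 and 9.28 in HDACI replicates 1 to 4 and 9.27, 9.12, 9.36 and 9.41 in vehicle replicates 1 to 4 (log2). Of the 4 HDACI arrays, 3 lay above every vehicle array, while HDACI replicate 4 lay among the vehicle arrays. The difference was 0.18 ± 0.093 (log2, SE, 95% interval -0.027 to 0.39, n = 4 each), with limma's adjusted p = 1.0. Without HDACI replicate 4 it was 0.25 and passed the unadjusted threshold, as did 3.12% of all probe sets in that fit. Leaving out this array lowered the difference of Col1a1. Col11a1, Col11a2 and Col27a1, also known from cartilage, differed by 0.014 ± 0.077, 0.047 ± 0.080 and 0.037 ± 0.058. Markers of bone and cartilage were measured for all 12 genes listed, with a median difference of 0.041, 11 of 12 higher, against 53.3% of all probe sets, and 1, Runx2, higher at the unadjusted threshold, against 1.61%. Of these, 2 lay in the lowest 30% of probe sets. Their median deviation lay between -0.027 and 0.084 in HDACI and between -0.058 and -0.0086 in vehicle.

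**Figure D2:**
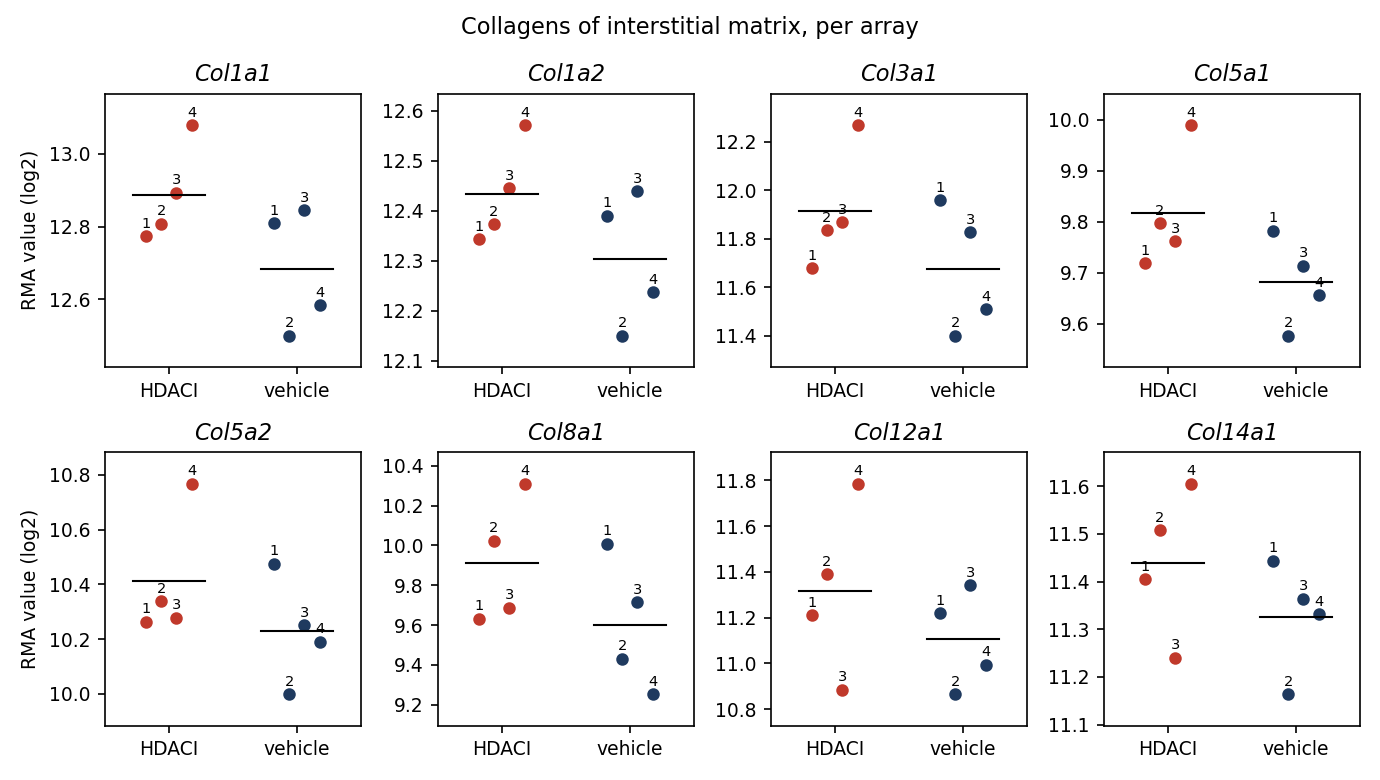
Points are log2 RMA values of 8 collagens, numbered by replicate, HDACI red and vehicle dark blue, with lines at the group means (n = 4 each); the vertical axes do not start at 0. HDACI replicate 4 is the highest array in every panel. This follows from the choice of panels, which show 8 of the 9 genes, out of 25, for which that array was highest. Vehicle replicate 2 is the lowest in every panel except that of Col8a1.

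Of the basement membrane collagens, Col4a1 encodes a chain of the type IV network found in most basement membranes. It measured 9.59, 9.88, 9.63 and 9.81 in HDACI replicates 1 to 4 and 9.68, 9.62, 9.48 and 9.61 in vehicle replicates 1 to 4 (log2), with the highest value in HDACI replicate 2 and the lowest in vehicle replicate 3. Its difference was 0.13 ± 0.077 (log2, SE, 95% interval -0.042 to 0.31, n = 4 each), with limma's adjusted p = 1.0. Without HDACI replicate 2 it was 0.082, and with the muscle genes as a covariate it was 0.22.

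Col4a3 and Col4a4 encode chains that assemble with the α5 chain into the network of kidney glomerulus, lung and other specialized basement membranes. The values of Col4a3 were 7.75, 8.05, 7.94 and 7.70 in HDACI replicates 1 to 4 and 7.79, 7.65, 7.86 and 8.01 in vehicle replicates 1 to 4 (log2), and those of Col4a4 were 7.88, 7.998, 7.93 and 7.81 in HDACI replicates 1 to 4 and 7.78, 7.75, 7.88 and 7.90 in vehicle replicates 1 to 4 (log2). Both were highest in HDACI replicate 2 and lowest in vehicle replicate 2. The differences were 0.034 ± 0.098 and 0.077 ± 0.057. The sign for Col4a3 turned without HDACI replicate 2 (-0.028), without vehicle replicate 2 (-0.026), with the muscle genes as a covariate (-0.025) and without vehicle replicates 1 and 2 (-0.074).

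Among the other collagens the largest difference and the widest range belonged to Col8a1, a short-chain collagen that forms networks beneath endothelium. It measured 9.63, 10.02, 9.69 and 10.31 in HDACI replicates 1 to 4 and 10.01, 9.43, 9.72 and 9.25 in vehicle replicates 1 to 4 (log2), a range of 1.06. HDACI replicates 2 and 4 lay above every vehicle array, but vehicle replicate 1 lay above the remaining HDACI arrays. The difference was 0.31 ± 0.19 (log2, SE, 95% interval -0.12 to 0.75, n = 4 each), with limma's adjusted p = 1.0. It was 0.45 without vehicle replicate 1, past the unadjusted threshold, which 6.10% of all probe sets passed in that fit. Without HDACI replicate 4 it was 0.18.

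The fibril-associated collagens Col12a1 and Col14a1 bind to the surface of type I fibrils and differed by 0.21 ± 0.18 and 0.11 ± 0.088. Without HDACI replicate 4 these differences were 0.057 and 0.058. Col16a1, of the same family, had the narrowest spread, with an SD within groups of 0.071. Its values were 9.55, 9.63, 9.48 and 9.50 in HDACI replicates 1 to 4 and 9.40, 9.48, 9.33 and 9.48 in vehicle replicates 1 to 4 (log2). HDACI replicates 1, 2 and 4 lay above every vehicle array, and replicate 3 lay just under the highest of them. The difference was 0.11 ± 0.055 (log2, SE, 95% interval -0.011 to 0.24, n = 4 each), with limma's adjusted p = 1.0. It was 0.084 without HDACI replicate 2 and 0.16 with the muscle genes as a covariate.

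Col7a1, which builds the anchoring fibrils of epithelial basement membranes, measured 8.57, 8.72, 8.83 and 8.70 in HDACI replicates 1 to 4 and 8.45, 8.54, 8.57 and 8.70 in vehicle replicates 1 to 4 (log2). Its difference was 0.14 ± 0.071. It was 0.18 and passed the unadjusted threshold without HDACI replicate 1 or without vehicle replicate 4. In those fits 4.07% and 4.64% of all probe sets passed it. Col9a1, a fibril-associated chain of cartilage, measured 8.04, 8.19, 8.29 and 7.97 in HDACI replicates 1 to 4 and 7.95, 7.97, 7.90 and 8.11 in vehicle replicates 1 to 4 (log2). HDACI replicates 2 and 3 were highest, and the difference was 0.14 ± 0.079. Without HDACI replicate 4 it was 0.19 and past the unadjusted threshold, which 3.12% of all probe sets passed in that fit.

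The remaining members differed by at most 0.095. Among them were Col9a2 (0.050 ± 0.069), the membrane-spanning collagens Col13a1 (0.095 ± 0.070) and Col17a1 (0.087 ± 0.068), and the type VI chain Col6a4 (0.063 ± 0.089), whose dimmer probe sets differed by 0.038 and 0.046. Outside the rule for named genes lay Col10a1, a collagen of hypertrophic cartilage (0.012 ± 0.11), and Col23a1, another that spans the membrane (0.016 ± 0.086). The 95% interval of each of the 25 differences included 0. The upper limit was highest for Col8a1, at 1.68-fold, and lay at 1.54-fold for Col12a1 and 1.5-fold for Col3a1. For the other 22 genes it lay between 1.11-fold and 1.40-fold.

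**Figure D3:**
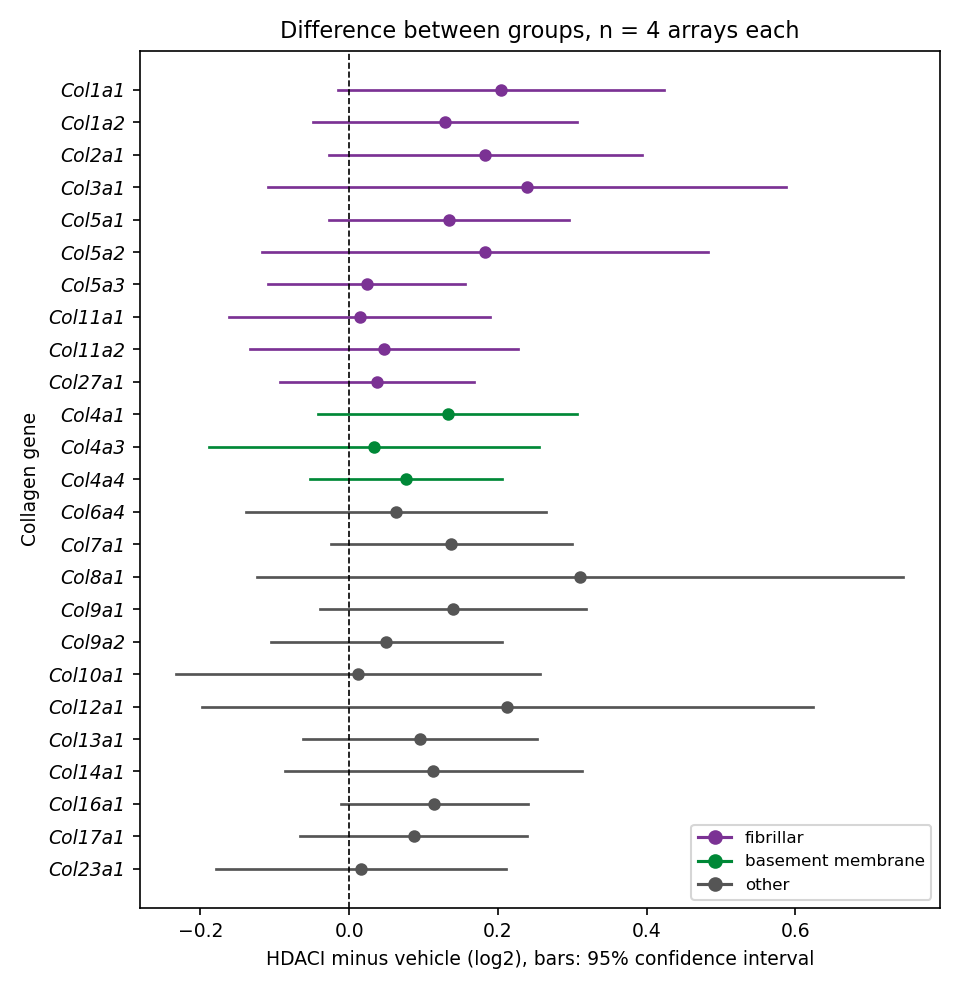
Points are differences between the means of HDACI and vehicle (log2, n = 4 arrays each) and bars are 95% confidence intervals from limma, coloured by class. All 25 points lie above 0 and every bar crosses 0.

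The arrays at the extremes differed between the classes. HDACI replicate 4 was the highest array for 9 of the 25 genes, 6 of them fibrillar, and vehicle replicate 2 was the lowest for 13, of which 7 were fibrillar. HDACI replicate 2 was highest for all 3 basement membrane collagens. HDACI replicate 3 was highest for 5 of the other collagens. The median deviation of the fibrillar class was 0.19 in HDACI replicate 4 and -0.20 in vehicle replicate 2, and lay between -0.051 and 0.033 in the other 6 arrays.

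Lists of cell type markers were set beside these values. Of all probe sets 53.3% were higher in HDACI, and 1.61% were higher at the unadjusted threshold. Of the markers of fibroblasts and meninges 13 of 14 were measured (all 13 higher, median difference 0.27, 0 at the unadjusted threshold), with mean levels between 10.27 and 10.96 in HDACI and between 10.03 and 10.69 in vehicle. Their median deviation was highest in HDACI replicate 4 (0.37) and lowest in vehicle replicates 2 (-0.40) and 4 (-0.36). Macrophage markers, all 10 measured and all higher in the mean of HDACI (median difference 0.090, 0 at the unadjusted threshold), were highest in HDACI replicate 4 as well (0.42), and lay between -0.16 and 0.15 in the others. For Schwann cells, 10 of 12 markers were measured, 6 were higher (median difference 0.0018), and HDACI replicate 4 was the lowest array (-0.12). Of the endothelial and pericyte markers, all 13 measured, 10 were higher (median difference 0.14) and 1, Pdgfrb, was higher at the unadjusted threshold, and their median deviation lay between -0.15 and 0.15. Sensory neuron markers, 13 of 15 measured, counted 2 higher and 11 lower (median difference -0.054, 0 at the unadjusted threshold). Their median deviation was lowest in HDACI replicate 4 (-0.15) and vehicle replicate 1 (-0.13). The matrix proteins Dcn and Lum stand on both the fibroblast list and a list of matrix proteins. The part of these cell types in the collagen values was not tested.

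The dimmer collagens were also set beside a feature of whole arrays. Among the 9659 probe sets with a mean between 7 and 9 (log2), the median deviation was 0.030 in HDACI replicate 3 and 0.024 in vehicle replicate 4, and -0.027 in HDACI replicate 4 and vehicle replicate 1. This range held Col4a3, Col4a4, Col6a4, Col7a1, Col9a1, Col9a2, Col10a1, Col11a1, Col11a2, Col13a1, Col17a1 and Col23a1. In it 56.0% of all probe sets were higher in HDACI, with a median difference of 0.011. Of these 12 collagens, 8 had their highest value in HDACI replicate 3 or vehicle replicate 4. The share of all probe sets in this range with their highest value there was not computed, so the count has no reference. The part of this feature in the collagen values was not tested.

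**Figure D4:**
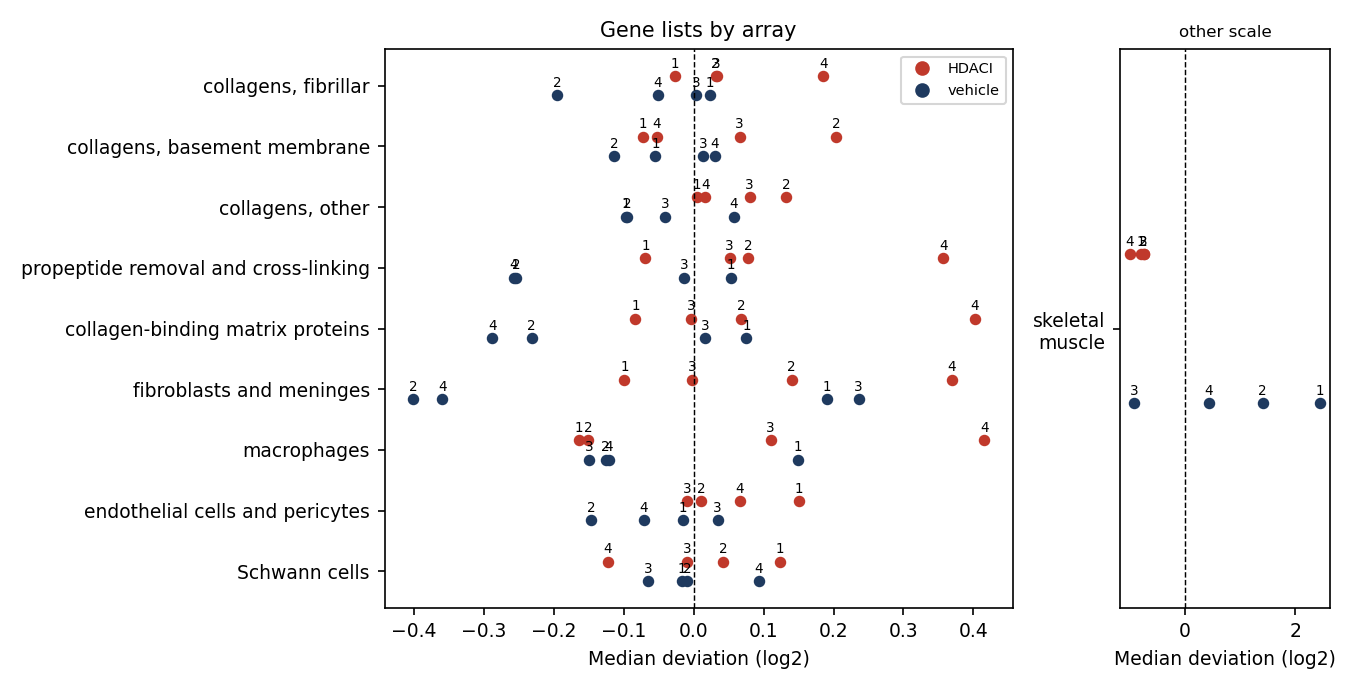
Each point is the median deviation of a gene list from its mean over all arrays (log2) in 1 array, numbered by replicate, HDACI red and vehicle dark blue, with skeletal muscle on a scale of its own. HDACI replicate 4 lies farthest to the right for fibrillar collagens, propeptide removal and cross-linking, matrix proteins, fibroblasts and meninges, and macrophages. Skeletal muscle runs from -0.92 to 2.45 over the vehicle arrays.

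Chains that assemble into 1 molecule or share 1 fibril, as Col1a1 and Col3a1 do, were compared across the 8 arrays, in 6 pairs. Genes that share neither a molecule nor a fibril were not compared in this way. The values therefore do not show that correlation is particular to chain partners. Col1a1 and Col1a2 had Pearson's r = 0.99 and Spearman's rho = 1.0 (exact permutation p = 2.5e-05 and 5.0e-05, the smallest each can take, adjusted over the 6 pairs 0.000149 and 0.000298). Type I and type III chains followed each other as well, with r = 0.96 and rho = 0.88 for Col1a1 and Col3a1 (exact permutation p = 0.000645 and 0.00724, adjusted 0.00129 and 0.0109). Col5a1 and Col5a2 had r = 0.97 and rho = 0.98 (exact permutation p = 0.000223 and 0.000397, adjusted 0.000670 and 0.00119).

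Without the 2 arrays farthest from the median of the first chain, which were HDACI replicate 4 and vehicle replicate 2 for these pairs, r was 0.98, 0.86 and 0.79 (exact permutation p = 0.00139, 0.0361 and 0.0583). The neighbouring genes Col4a3 and Col4a4, whose promoter windows share bases, had r = 0.87 and rho = 0.90 (exact permutation p = 0.00652 and 0.00456, adjusted 0.00978 and 0.00913). Without HDACI replicate 2 and vehicle replicate 4 their r was 0.83 (exact permutation p = 0.0444). Leaving out the extremes of a chain narrows its range. Adjusted over the 6 pairs, these exact permutation p-values on 6 arrays were 0.00833 for the type I chains and 0.0875 for each of the pairs of types I with III, V and IV.

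The chains of types IX and XI did not pass. Col9a1 and Col9a2 had r = 0.69 and rho = 0.71 (exact permutation p = 0.0616 and 0.0576, adjusted 0.0739 and 0.0691), and r = 0.65 without HDACI replicates 2 and 3 (exact permutation p = 0.161). Col11a1 and Col11a2 had r = -0.27 and rho = -0.05 (exact permutation p = 0.507 and 0.935, with the same values after adjustment), and r = 0.10 without HDACI replicate 4 and vehicle replicate 3 (exact permutation p = 0.811). On deviations from the group means, r was 0.996, 0.96, 0.99, 0.94, 0.67 and -0.30 for the pairs of types I, I with III, V, IV, IX and XI.

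**Figure D5:**
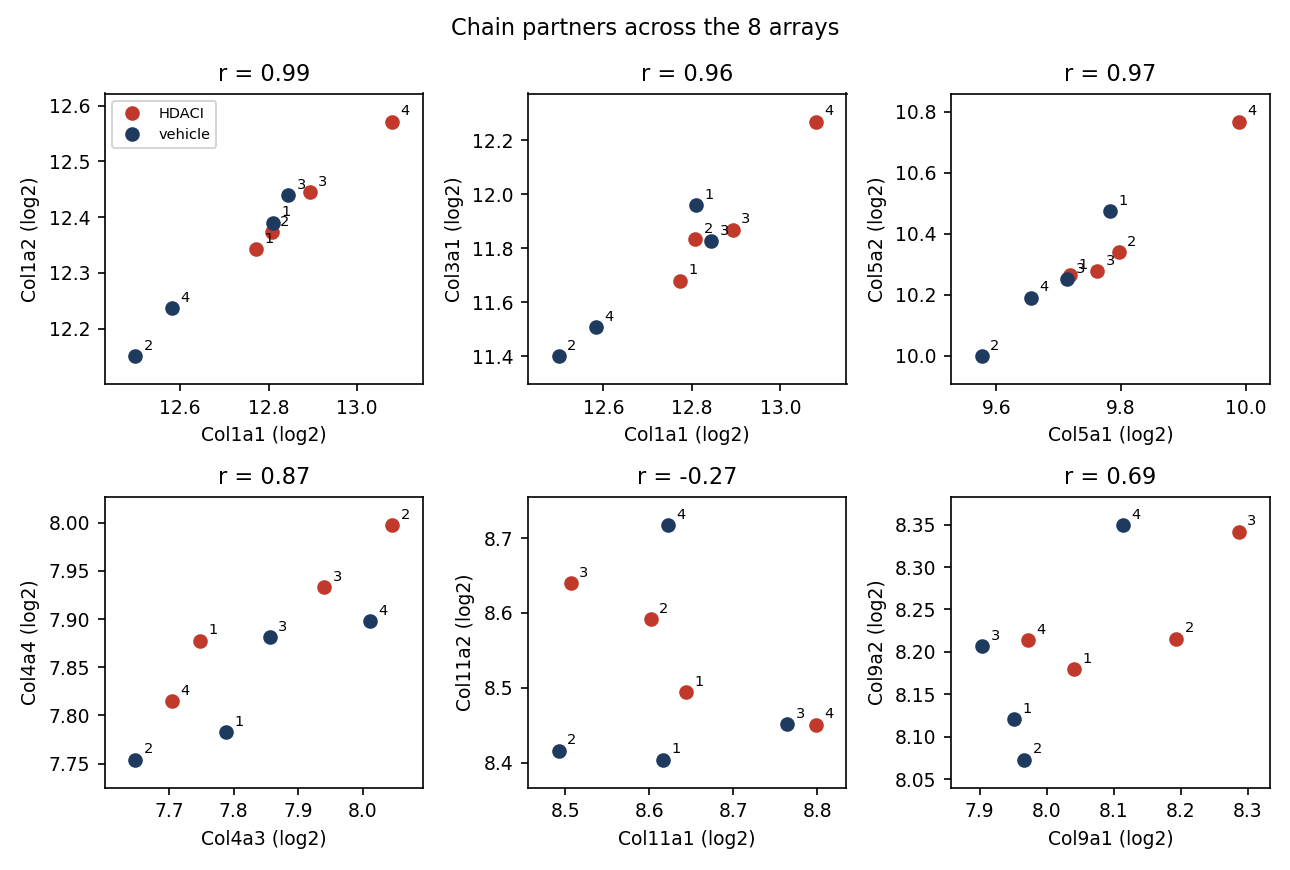
Each panel plots the log2 RMA values of 2 collagen chains in the 8 arrays, numbered by replicate, HDACI red and vehicle dark blue, with Pearson's r above; the axes do not start at 0. Points line up for types I, III, V and IV, and do not for Col11a1 and Col11a2 (r = -0.27).

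Other genes of collagen assembly and turnover were taken from 6 lists, of which 66 of 76 genes were measured. Of these 66, 5 had an unadjusted limma p under 0.05 and were higher in HDACI, where 1.61% of all probe sets were, and 0 were lower. None passed adjustment (adjusted p = 1.0). The 66 had a median difference of 0.10, and 59 were higher and 7 lower, where 53.3% of all probe sets were higher. The count of 5 became 0 on leaving out HDACI replicate 4, vehicle replicate 2 or vehicle replicate 4. It was also 0 with the muscle genes as a covariate. Of all 28826 probe sets 474, 321, 674 and 502 were higher at this threshold in these fits, in that order, and 465 in the main fit. Leaving out HDACI replicate 2 gave 1, vehicle replicate 3 gave 3 and HDACI replicate 1 gave 10. There 362, 465 and 585 of all 28826 probe sets were higher at this threshold.

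Among genes of chain folding and modification, 14 of 15 were higher, against 53.3% of all probe sets. At the unadjusted threshold, where 1.61% of all probe sets were higher, 1 passed. It was Ppib, the peptidyl-prolyl isomerase cyclophilin B of the endoplasmic reticulum, which differed by 0.13 ± 0.054 (log2, SE). Its values were 12.57, 12.61, 12.56 and 12.74 in HDACI replicates 1 to 4 and 12.54, 12.48, 12.43 and 12.50 in vehicle replicates 1 to 4 (log2), so that the groups did not overlap. This held for 1 of the 66 genes, against 1.01% of all probe sets, and Ppib was singled out after its values were seen. The chaperone Fkbp10 differed by 0.21 ± 0.12 and the prolyl 3-hydroxylase P3h1 by 0.10 ± 0.059.

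Of the 11 genes of propeptide removal and cross-linking, 10 were higher, against 53.3% of all probe sets. At the unadjusted threshold, where 1.61% of all probe sets were higher, 3 passed. Bmp1, the protease that removes the carboxy-terminal propeptide, differed by 0.13 ± 0.052. Loxl1, an enzyme of the lysyl oxidase family, which cross-links collagen and elastin, differed by 0.41 ± 0.17, and Adamts14, which removes the amino-terminal propeptide, by 0.19 ± 0.084. Loxl1 was highest in HDACI replicate 4 (10.88) and lowest in vehicle replicate 4 (9.71).

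Collagen receptors counted 6 higher and 3 lower of 9, where 53.3% of all probe sets were higher. The integrin chain Itga11 passed at the unadjusted threshold (0.19 ± 0.082), where 1.61% of all probe sets were higher. The endocytic collagen receptor Mrc2 differed by 0.25 ± 0.17 and the integrin chain Itga1 by 0.093 ± 0.080. Of the matrix proteins that bind collagen all 11 measured were higher, against 53.3% of all probe sets, and none passed. These proteins included Fbln1 (0.34 ± 0.19), Mgp (0.24 ± 0.14) and fibronectin, Fn1 (0.27 ± 0.17). In TGF-beta signalling, a known inducer of collagen genes, all 9 were higher, where 53.3% of all probe sets were, and none passed. Smad7 differed by 0.16 ± 0.083, Tgfb1 by 0.15 ± 0.086, Tgfb3 by 0.13 ± 0.14 and Smad2 by 0.00089 ± 0.046. The list was not divided into genes that promote and genes that limit the signal.

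Of 11 proteases that cleave collagen and their inhibitors 9 were higher, against 53.3% of all probe sets, and none passed. Mmp9, a gelatinase, measured 8.57, 9.33, 7.64 and 12.07 in HDACI replicates 1 to 4 and 9.04, 7.65, 7.91 and 8.57 in vehicle replicates 1 to 4 (log2). HDACI replicate 4 stood above all other arrays, and the difference was 1.11 ± 0.83. The membrane-bound Mmp14 differed by 0.26 ± 0.15 and the inhibitor Timp1 by 0.058 ± 0.042.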

How the data were processed

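The log2 values deposited by the authors came from RMA, run with the oligo package, which corrects background, quantile-normalizes the arrays and summarizes each probe set. The sources used here name no version. RMA gives all arrays nearly the same distribution, so that a change shared by all transcripts is not visible, and it compresses differences of dim probe sets. Arrays have no read depth, and their number limits the precision. Array medians lay between 8.13 and 8.16 and arrays correlated at 0.991 to 0.997.

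The table held 28826 probe sets, of which 15209 carried 1 symbol, 306 several and 13311 none. HDACI minus vehicle was fitted on all probe sets by the two-sided moderated test of limma (3.58.1, R 4.3.3), with Benjamini-Hochberg adjustment over all of them and no covariate. Genes, lists and classes were chosen with earlier results of these data known. Named were all fibrillar and basement membrane collagens, type VI chains, the 10 other collagens and the 3 members of each list with the smallest unadjusted p. Values per array are given for the 3 members of each class with the smallest p and for Col1a2 and Col3a1, and for Col5a2, Col8a1, Ppib and Mmp9 after their values were seen. Marker lists of satellite glia (4 of 7 genes measured, median difference -0.064) and of the other cell types were described without a test. Chain pairs were compared by exact permutation over all 40320 pairings. Gene positions come from RefSeq (GRCr8), since the annotation names no build. Scripts were tested on simulated data. Alternatives were the replicate number as a block, filters on dim or unnamed probe sets, other normalizations and variance models, array weights, a muscle score, all probe sets of a gene and each array left out. Same-numbered arrays of the groups deviated with correlations of -0.04, 0.01, 0.01 and -0.28, so that the numbers did not pair them.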

Additional observations from a re-analysis of the deposited data

Results flagged for a closer look

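In 50 groups of 4 arrays (25 genes in 2 treatment groups), 2 held an array that stood apart from the other 3 by more than Dixon's limit of 0.829, and chance gives about 1 in 20 such groups. For Col5a2, HDACI replicate 4 measured 10.77 against 10.34 in the next array, a gap of 0.850 of the range of its group. For Col11a2, vehicle replicate 4 measured 8.72 against 8.45 in the next array, a gap of 0.849 of the range.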

How the results depend on the processing

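Under all 20 alternatives 0 collagen genes passed an adjusted p of 0.05 and 0 an unadjusted p of 0.01. The sign of 16 of the 25 differences was kept under all of them. The replicate block, the filters on probe sets and the intensity trends cannot change a difference, so signs kept there were fixed in advance. The number with an unadjusted p under 0.05 was 4 with array weights (Col2a1, Col4a1, Col9a1 and Col16a1) and 0 to 2 with 1 array left out. It was 1 without HDACI replicate 1, vehicle replicate 3 or vehicle replicate 4 and 2 without HDACI replicate 4 or vehicle replicate 1. All probe sets at that threshold numbered 1022, 803 with the replicate block, 708 to 1758 with 1 array left out, and 2045 with array weights.

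The replicate block left all differences as they were, with 0 collagens at the unadjusted threshold and 0 genes of the collagen-related lists instead of 5. That list count was 3 with cyclic loess, 3 with an intensity trend, 3 with a robust trend and 0 with the muscle score. It was 2 with the 2 vehicle arrays highest in muscle genes left out (Loxl1 and Tgfb3), and 0 to 10 with 1 array left out. Probe sets higher at that threshold, of all 28826, numbered 337 with the replicate block, 457 with cyclic loess and 451 and 444 with the trends. They numbered 502 with the muscle score, 611 without the 2 vehicle arrays and 321 to 721 with 1 array left out. In the fit without those 2 vehicle arrays 1 list gene was lower, Timp4 (-0.17).

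Signs turned for Col11a1 (-0.0025) with array weights. With the muscle score they turned for Col11a1 (-0.10), Col27a1 (-0.048), Col4a3 (-0.025), Col6a4 (-0.016), Col9a2 (-0.017), Col10a1 (-0.086) and Col23a1 (-0.097). Without the 2 vehicle arrays they turned for Col11a1 (-0.056), Col11a2 (-0.040), Col27a1 (-0.042), Col4a3 (-0.074), Col6a4 (-0.035), Col9a2 (-0.040), Col10a1 (-0.11) and Col23a1 (-0.083). With 1 array left out Col10a1 lay between -0.065 and 0.095, Col11a1 lay between -0.040 and 0.061, Col23a1 lay between -0.042 and 0.078, Col4a3 lay between -0.028 and 0.096, Col5a3 lay between -0.0033 and 0.072 and Col6a4 lay between -0.0052 and 0.14. The correlation of Col11a1 and Col11a2 was 0.10 without the 2 arrays farthest from the median. The cause was not tested in any of these. None of the 25 collagens lay in the lowest 30% of probe sets, with a mean under 6.95 (log2). Some lay below the array medians of 8.13 to 8.16, among them Col10a1 (7.43), Col17a1 (7.72) and Col4a3 (7.84). For these, weak signal can still limit what can be seen.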
